A study of Rattus norvegicus with 6 samples.

Results

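The 10 genes described here are regulators and early markers of fat, bone and cartilage fate in mesenchymal cells: Pparg, Cebpa, Cebpd, Zfp423, Lpl, Runx2, Alpl, Msx2, Sox9 and Bmp4. They were taken by gene symbol from a table of 21857 genes, in which all 10 were found. A filter on low counts left 12298 genes for testing, among them 9 of the 10, and Pparg did not pass it.

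Mesenchymal stromal cells can form adipocytes, osteoblasts or chondrocytes. The nuclear receptor PPARγ and the C/EBP factors drive the fat programme, RUNX2 the bone programme and SOX9 the cartilage programme, and the adipogenic and osteogenic factors are known to restrain each other. BMP ligands act upstream of all of these fates.

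RNA was sequenced from adipose-derived mesenchymal stem cells of Sprague Dawley rats, held in a BCAA-free DMEM with 10% fetal bovine serum. BCAA are the branched chain amino acids leucine, isoleucine and valine. The control group received vehicle (3 libraries) and the treated group 3.432 mM BCAA (3 libraries), each for 12 h and each with 100 µM hydrogen peroxide, an oxidant. No induction medium for fat, bone or cartilage is named in the labels, and the labels do not tie the replicates to separate animals or cultures. The p-values therefore measure only how these libraries vary, and that variation may be technical.

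Libraries held 12725344 to 15739731 counts. Vehicle replicate 1 stood apart from the other 5 libraries on the first principal component (31.6% of the variance, score 21.1 against -12.1 to 0.38). Values without this library are therefore given for each tested regulator and for the related genes named below whose call it changes. On the second component (25.5%) vehicle replicate 1 scored 4.36, within the range of the BCAA libraries (1.87 to 10.3). Vehicle replicates 2 and 3 scored -13.8 and -11.2. Fits without vehicle replicate 1 thus leave out the vehicle library on the BCAA side of that component. Stromal markers were high in both groups, with summed levels of 5589 to 5711 CPM (counts scaled to library size) with vehicle and 5689 to 5723 CPM with BCAA over 8 genes, led by Itgb1, Cd44 and Col3a1. Among 18 adipocyte genes, 11 were under 1 CPM on average, such as the adipokine gene Adipoq (17 reads in all 6 libraries together) and the lipid droplet gene Plin1 (5). The 18 genes summed to 199 to 222 CPM with vehicle and 197 to 205 CPM with BCAA, led by Dgat1, Acsl1 and Agpat2. Leukocyte markers were detected (160 to 173 CPM summed over 6 genes in every library, led by Cd14, Cd68 and Csf1r). On average Csf1r stood at 17.4 CPM and Ptprc at 15.6 CPM, while the T cell gene Cd3e had no read. Of the 5 endothelial markers found, the summed level was 7.85 to 9.78 CPM, and of 4 skeletal muscle precursor genes 3 had no read. Smooth muscle and pericyte markers differed between the groups, with sums of 940 to 1011 CPM with vehicle and 653 to 681 CPM with BCAA over 8 genes. Acta2 and Tagln fell and 5 others did not pass in edgeR with all 6 libraries. Of the 5, Cnn1 and Mcam were called lower by DESeq2 (adjusted p = 0.014 and 0.048). Both were also called lower by edgeR without vehicle replicate 1 (log2 fold changes -0.46 and -0.35, adjusted p = 0.019 and 0.013). Cnn1 was called lower by edgeR without the low-count filter too (adjusted p = 0.022). Neither gene was called in the remaining fits. Rgs5, a pericyte gene, was near 0. The part of these markers in the results below was not tested.

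No lineage regulator passed an adjusted p of 0.05 in edgeR's quasi-likelihood test, out of 9 tested. Over all genes 0.228% were called (28 of 12298, 7 higher and 21 lower with BCAA). An unadjusted p under 0.05 was reached by 1 of the 9, Runx2, against 11.8% of all genes. The fitted level was higher with BCAA for 4 of the 9 and lower for 5, and the median log2 fold change of the 9 was -0.0013, next to 0.0035 over all genes tested. Runx2 and Zfp423 showed no overlap of CPM between the groups, as did 18.1% of all genes.

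**Figure D1:**
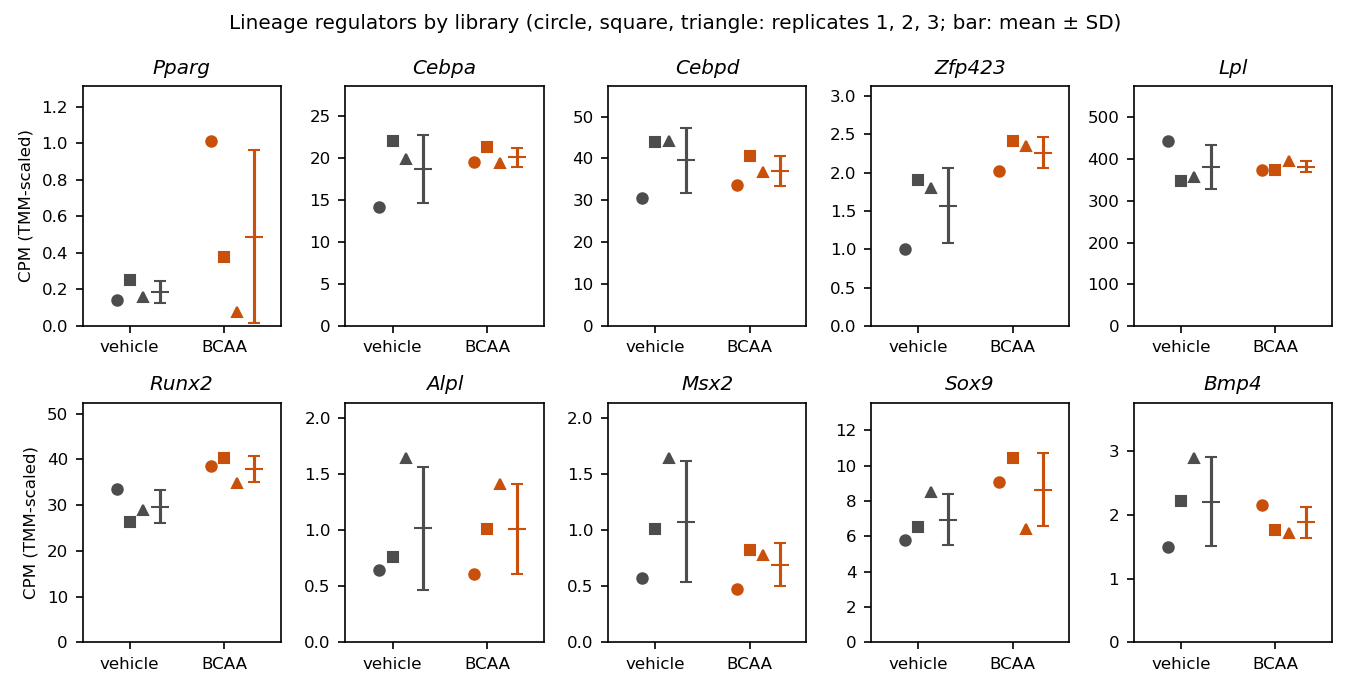
Level of each of the 10 genes (CPM with TMM-scaled library sizes, linear axes from 0) in the vehicle and BCAA libraries; circles, squares and triangles are replicates 1, 2 and 3, and bars are the mean ± SD. Runx2 (26.4 to 33.5 CPM against 34.7 to 40.3 CPM) and Zfp423 show no overlap between the groups, and Pparg is spread from 0.078 to 1.01 CPM within the BCAA group.

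Pparg, the nuclear receptor that directs adipocyte formation, was barely detected. In the order of replicates 1, 2 and 3, the vehicle libraries held 2, 4 and 2 reads and the BCAA libraries 15, 6 and 1; values of other genes below follow the same order. A single library, BCAA replicate 1, held 15 of the 30 reads, and the BCAA libraries spanned the vehicle ones. With so few reads Pparg was left out of the main test. Without the low-count filter its log2 fold change was 1.38 (SE 0.81, edgeR adjusted p = 0.59), which is not a detectable difference at this depth. Counts per gene add the transcripts of all starts, and RefSeq places 57714 bases between the starts that it lists for Pparg. The 250 bases before each (assembly GRCr8, plus strand, chr4:150096808-150097057 and chr4:150154522-150154771) are shown because the counts cannot assign the few reads to either. Capitals mark matches, on either strand, to the searched motifs given after the Runx2 sequences.
Pparg upstream start: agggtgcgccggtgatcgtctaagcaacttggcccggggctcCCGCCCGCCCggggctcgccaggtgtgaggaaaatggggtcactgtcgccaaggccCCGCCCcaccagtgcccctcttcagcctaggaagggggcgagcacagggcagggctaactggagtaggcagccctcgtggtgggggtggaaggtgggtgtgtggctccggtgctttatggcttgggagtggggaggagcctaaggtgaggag
Pparg downstream start: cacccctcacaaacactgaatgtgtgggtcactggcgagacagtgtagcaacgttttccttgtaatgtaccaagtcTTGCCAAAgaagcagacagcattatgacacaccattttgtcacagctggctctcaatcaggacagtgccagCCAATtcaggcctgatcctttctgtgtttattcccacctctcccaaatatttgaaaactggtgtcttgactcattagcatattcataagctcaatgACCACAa
The upstream window was richer in G and C (67.2%) than the downstream one (44.8%). It held GC boxes only, whereas the downstream window held a C/EBP-type match, a CCAAT box and a RUNX core.

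Cebpa and Cebpd encode leucine zipper factors of the adipogenic cascade, Cebpd being an early member and Cebpa a late one that keeps up PPARγ. Cebpa stood at 14.2, 21.9 and 19.8 CPM in the vehicle libraries and at 19.5, 21.3 and 19.3 CPM in the BCAA libraries. Vehicle replicate 1 was the low library, and the other 5 lay within 19.3 to 21.9 CPM. The log2 fold change was 0.10 (SE 0.14, 95% interval -0.20 to 0.41, edgeR adjusted p = 0.82). Without vehicle replicate 1 it was -0.06 (95% interval -0.29 to 0.17, edgeR adjusted p = 0.85).

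Cebpd stood at 30.6, 44.0 and 44.1 CPM in the vehicle libraries and at 33.6, 40.6 and 36.8 CPM in the BCAA libraries. As for Cebpa, vehicle replicate 1 was lowest, and the groups overlapped. Its fitted log2 fold change was -0.10 (SE 0.13, 95% interval -0.37 to 0.18, edgeR adjusted p = 0.82). Without vehicle replicate 1 it was -0.25 (SE 0.09, edgeR adjusted p = 0.12), which did not pass. All 3 BCAA libraries then lay below both vehicle libraries, but this was not particular to Cebpd. Msx2 and Bmp4 separated in the same direction without that library, and Lpl, Runx2 and Zfp423 in the other. Cebpa, Alpl and Sox9 still overlapped. How many of all genes separate in this way was not counted. Cebpb, the partner of Cebpd early in the cascade, overlapped between the groups too, with 566 to 745 CPM with vehicle and 646 to 719 CPM with BCAA (log2 fold change 0.02, SE 0.09).

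Zfp423 encodes a zinc finger factor that marks committed preadipocytes and turns on Pparg. Its counts were 14, 30 and 23 with vehicle and 30, 38 and 30 with BCAA, or 1.00, 1.90 and 1.80 CPM against 2.02, 2.41 and 2.35 CPM. All BCAA libraries lay above all vehicle libraries, the nearest pair being 1.90 and 2.02 CPM. On the log2 scale the fitted change was 0.52 (SE 0.30, 95% interval -0.13 to 1.17, edgeR adjusted p = 0.53), and 0.28 (SE 0.32) without vehicle replicate 1. With each library left out in turn it ran from 0.28 to 0.69.

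Lpl encodes lipoprotein lipase, the secreted enzyme that frees fatty acids from circulating triglyceride and is an early marker of preadipocytes. It was well measured, with 32741 reads over the 6 libraries. Levels were 443, 347 and 357 CPM in the vehicle libraries and 375, 373 and 397 CPM in the BCAA libraries. Vehicle replicate 1 was the highest of the 6. The group means were 382 ± 52.6 and 382 ± 13.0 CPM (SD, n = 3 each). Fitted on the log2 scale, the fold change was -0.0024 (SE 0.08, edgeR adjusted p = 0.99). The 95% interval, -0.18 to 0.18, leaves room for 1.13-fold either way. Without vehicle replicate 1 the log2 fold change was 0.12 (SE 0.05, edgeR adjusted p = 0.23).

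Runx2 encodes the transcription factor that starts osteoblast differentiation and had the smallest p of the 9 genes. Levels were 33.5, 26.4 and 29.0 CPM in the vehicle libraries and 38.4, 40.3 and 34.7 CPM in the BCAA libraries. All BCAA libraries lay above all vehicle libraries, the nearest pair being vehicle replicate 1 and BCAA replicate 3. The means were 29.6 ± 3.60 CPM and 37.8 ± 2.85 CPM (SD, n = 3 each), 1.28-fold apart (log2 fold change 0.36, SE 0.10, 95% interval 0.13 to 0.58). In edgeR's test the p was 0.0044 before and 0.18 after adjustment, so that Runx2 did not pass. Without vehicle replicate 1 the log2 fold change was 0.46 (SE 0.10) and edgeR's adjusted p 0.0082, and in that fit 3.93% of all genes were called. Over the 10 alternatives the log2 fold change ran from 0.27 to 0.46 and edgeR's or DESeq2's adjusted p from 0.0082 to 0.51. Cbfb, which encodes the partner subunit of RUNX proteins, stood at 59.0 to 64.7 CPM with vehicle and 64.5 to 69.7 CPM with BCAA (log2 fold change 0.11, SE 0.08).

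RefSeq lists 2 starts for Runx2 as well, 78182 bases apart. The span of the gene overlaps that of Supt3h, which encodes a transcription cofactor. Without strand information, reads where their exons overlap cannot be assigned with certainty. Supt3h itself had 71 to 113 counts with vehicle and 74 to 120 with BCAA (log2 fold change 0.04, SE 0.25), against 2905 counts in all for Runx2. The 250 bases before the starts of Runx2 (GRCr8, plus strand, chr9:23664808-23665057 and chr9:23742990-23743239) and of Cebpa (GRCr8, plus strand, chr1:96896334-96896583) are shown as the control regions of a bone and a fat regulator whose levels stood well above the low-count filter.
Runx2 upstream start: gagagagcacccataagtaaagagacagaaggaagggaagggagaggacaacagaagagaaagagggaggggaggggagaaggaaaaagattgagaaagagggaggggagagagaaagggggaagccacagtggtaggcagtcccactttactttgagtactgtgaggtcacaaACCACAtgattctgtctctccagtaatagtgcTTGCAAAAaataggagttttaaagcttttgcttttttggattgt
Runx2 downstream start: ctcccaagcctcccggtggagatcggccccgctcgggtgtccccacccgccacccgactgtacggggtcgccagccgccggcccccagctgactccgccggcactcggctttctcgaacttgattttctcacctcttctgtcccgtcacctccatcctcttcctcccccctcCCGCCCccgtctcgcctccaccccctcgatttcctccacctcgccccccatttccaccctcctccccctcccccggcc
Cebpa start: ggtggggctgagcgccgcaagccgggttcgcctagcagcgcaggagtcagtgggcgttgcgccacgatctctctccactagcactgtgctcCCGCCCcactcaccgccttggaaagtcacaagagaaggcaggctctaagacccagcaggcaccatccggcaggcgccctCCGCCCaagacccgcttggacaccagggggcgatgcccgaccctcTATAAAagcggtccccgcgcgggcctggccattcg
The motifs searched on both strands were the RUNX core TGTGGT, the CCAAT box, the TATA box TATAAA, the GC box GGGCGG and a C/EBP-type motif TTGCNNAA. Among 33469 windows of 250 bases they were present in 14.5%, 34.0%, 12.9%, 30.5% and 9.22%, in that order. The upstream Runx2 window held a RUNX core, as ACCACA beginning 76 bases before the start, and a C/EBP-type match beginning 44 bases before it. The downstream Runx2 window held a GC box only, and the Cebpa window held a TATA box beginning 35 bases before the start and 2 GC boxes. RefSeq windows were found for 6 of the 10 genes (8 windows). A match is a description of the letters and not evidence of binding.

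Alpl, tissue-nonspecific alkaline phosphatase, is an early osteoblast marker that breaks down the mineralization inhibitor pyrophosphate. It had 9, 12 and 21 counts in the vehicle libraries and 9, 16 and 18 in the BCAA libraries. The groups overlapped fully, with means of 1.02 ± 0.547 and 1.01 ± 0.401 CPM (SD, n = 3 each). Its log2 fold change of -0.0013 (SE 0.46) had a 95% interval of -0.998 to 0.995, which allows for changes up to about 1.99-fold either way at this depth. It was -0.23 without vehicle replicate 1 and 0.49 without vehicle replicate 3 (edgeR adjusted p = 0.86 and 0.78).

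Msx2, a homeobox factor downstream of BMP signals that favours osteoblasts over adipocytes, had 8, 16 and 21 counts with vehicle and 7, 13 and 10 with BCAA. The highest values were those of vehicle replicates 2 and 3, and the groups overlapped. The log2 fold change of -0.62 (SE 0.46, 95% interval -1.60 to 0.36, edgeR adjusted p = 0.64) did not pass, and without vehicle replicate 1 it was -0.91 (SE 0.47, edgeR adjusted p = 0.31). Without vehicle replicate 3 it was -0.21 and without BCAA replicate 1 -0.40, so that the size of the difference rests on single libraries.

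Sox9, the master factor of cartilage, stood at 5.80, 6.53 and 8.54 CPM in the vehicle libraries and at 9.11, 10.4 and 6.41 CPM in the BCAA libraries. BCAA replicate 3 lay within the vehicle range and the other BCAA libraries above it. The log2 fold change was 0.33 (SE 0.20, 95% interval -0.09 to 0.76, edgeR adjusted p = 0.54), and with each library left out in turn it ran from 0.17 (without BCAA replicate 2) to 0.50 (without BCAA replicate 3). It was 0.22 without vehicle replicate 1, and edgeR's adjusted p was between 0.42 and 0.85 over these fits.

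Bmp4, a secreted ligand that commits stromal precursors to the adipocyte lineage and also acts in bone, had 21, 35 and 37 counts with vehicle and 32, 28 and 22 with BCAA. The groups overlapped, and vehicle replicate 1 was the lowest library by CPM and vehicle replicate 3 the highest. The log2 fold change was -0.22 (SE 0.30, 95% interval -0.86 to 0.43, edgeR adjusted p = 0.82). It was -0.43 without vehicle replicate 1 (edgeR adjusted p = 0.52) and 0.010 without vehicle replicate 3.

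**Figure D2:**
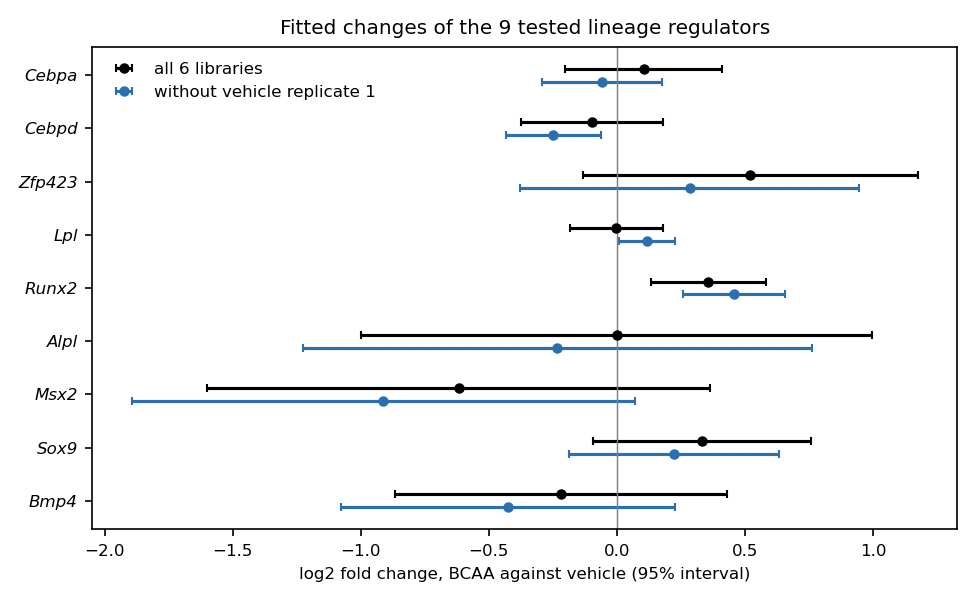
Log2 fold change of BCAA against vehicle with its 95% interval for the 9 tested genes, from all 6 libraries (black) and without vehicle replicate 1 (blue). Runx2 lies to the right of 0 in both fits (0.36 and 0.46), and the intervals of Alpl and Msx2, the genes with fewest counts, are the widest. In blue, the intervals of Cebpd (-0.43 to -0.06) and Lpl (0.0081 to 0.23) also exclude 0. Neither gene passed after adjustment (edgeR adjusted p = 0.12 and 0.23).

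Spread between libraries and counting error both enter these intervals. At the mean count, counting error alone was 28.3% of the level of Msx2, 26.6% for Alpl and 19.1% for Zfp423, but 1.35% for Lpl. Over the 9 tested genes, vehicle replicate 1 was the lowest of the 6 libraries for 5 (Cebpa, Cebpd, Zfp423, Sox9 and Bmp4) and the highest for Lpl. Over all genes it was lowest for 24.7% and highest for 23.7%. The vehicle group varied more than the BCAA group for all tested members except Sox9. The coefficient of variation of Lpl was 13.8% with vehicle and 3.40% with BCAA, and that of Cebpa 21.6% and 5.57%.

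**Figure D3:**
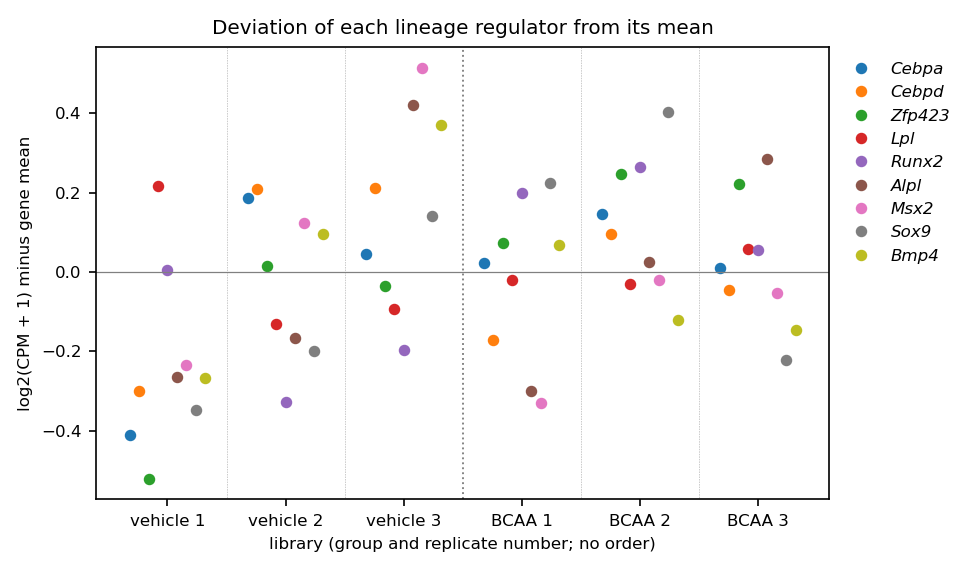
Log2(CPM + 1) of each tested gene minus its mean over the 6 libraries, by library; each colour is a gene and the libraries have no order. In vehicle replicate 1, Cebpa, Cebpd, Zfp423, Sox9 and Bmp4 lie at their lowest values (Zfp423 at -0.52) and Lpl at its highest (0.22).

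Other genes of the same programmes were read from 12 lists of 150 symbols, of which 148 were in the table and 100 were tested. None of the 100 was called (edgeR), where 0.228% of all genes were. At an unadjusted p under 0.05 there were 21 of the 100 (11.8% of all genes), and in 27 the groups did not overlap (18.1% of all genes). By DESeq2 4 of them were called, among them Hes1 and Vldlr higher and Mgp lower, where 1.03% of all genes were (0.447% higher, 0.585% lower). By edgeR without the low-count filter 4 of 138 were called (0.748% of all genes), and without scaling factors 1, Vldlr (0.236% of all genes). Without vehicle replicate 1, 4 of 102 were called higher and 7 lower, where 3.93% of all genes were called (1.73% higher, 2.20% lower). Those called higher were Hes1, Vldlr, Nr3c1 and Spp1, and those called lower included Fst, Mgp, Sfrp1, Sfrp2, Runx1 and Col1a1. With any other library left out, or with the replicate number as a block, none was called, where 6 to 12 of all genes were.

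Of 17 other adipogenic factors none was called with all 6 libraries (11 higher and 6 lower in sign, median log2 fold change 0.05). The smallest p values belonged to the glucocorticoid receptor gene Nr3c1 (0.17, SE 0.07), the oxysterol receptor gene Nr1h3 (-0.36, SE 0.15) and Klf4 (-0.19, SE 0.09). Nr3c1 was called without vehicle replicate 1 (0.21, edgeR adjusted p = 0.042). Among 10 tested repressors of adipogenesis (7 higher and 3 lower in sign, median 0.07), the Notch target Hes1 averaged 16.4 ± 1.19 CPM in the vehicle and 23.6 ± 1.15 CPM in the BCAA libraries (SD, n = 3 each; log2 fold change 0.52, SE 0.11, edgeR adjusted p = 0.060, and 0.016 without vehicle replicate 1). The nuclear receptor gene Rora had 0.51 (SE 0.16, edgeR adjusted p = 0.20) and Klf2 had -0.44 (SE 0.19, edgeR adjusted p = 0.39).

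Of 18 adipocyte genes, 11 lay under 1 CPM on average, and 9 were tested with none called (4 higher and 5 lower in sign, median -0.07). On the log2 scale the fatty acid transporter gene Cd36 stood at a fitted difference of -0.58 (SE 0.29), the fatty acid binding protein gene Fabp4 0.36 (SE 0.19) and the acyl-CoA synthetase gene Acsl1 -0.13 (SE 0.09). Fabp4 was low, at 3.62 to 5.09 CPM with vehicle and 5.63 to 6.34 CPM with BCAA. Around lipoprotein lipase, 7 of 12 partners and related lipases or receptors were tested (5 higher and 2 lower in sign, median 0.08). The lipoprotein receptor gene Vldlr averaged 82.0 ± 3.54 CPM in the vehicle and 104 ± 2.33 CPM in the BCAA libraries (SD, n = 3 each; log2 fold change 0.35, edgeR adjusted p = 0.057, and 0.0024 without vehicle replicate 1). Endothelial lipase, Lipg, had 0.19 (SE 0.08) and the lipase maturation factor gene Lmf1 -0.19 (SE 0.10). Angptl4, an inhibitor of lipoprotein lipase, stood at 485 to 520 CPM with vehicle and 468 to 500 CPM with BCAA. Gpihbp1, which anchors the enzyme on capillaries, had no read.

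Of 19 osteogenic factors and bone matrix genes found, 9 were tested and none was called with all 6 libraries (2 higher and 7 lower in sign, median -0.05). The phosphoprotein gene Spp1, osteopontin, averaged 605 ± 49.0 CPM in the vehicle and 722 ± 26.0 CPM in the BCAA libraries (SD, n = 3 each; log2 fold change 0.26, edgeR adjusted p = 0.14), and it was called without vehicle replicate 1 (0.32, SE 0.05, edgeR adjusted p = 0.00096). Col1a1, the main collagen of bone, stood at 5447 to 8475 CPM with vehicle and 6461 to 7430 CPM with BCAA. Its lowest library was vehicle replicate 1, without which it was called lower (-0.29, edgeR adjusted p = 0.0063, against -0.11 and 0.83 with all libraries). Tnfrsf11b, the osteoclast inhibitor osteoprotegerin, had -0.18 (SE 0.06, edgeR adjusted p = 0.24) and the matrix protein gene Sparc -0.18 (SE 0.06, edgeR adjusted p = 0.27). Counts differed widely within this list: the osteoblast factor gene Sp7 had 44 counts in all, osteocalcin (Bglap) 20 and Ibsp 21, while Spp1 had 57044, Sparc 385221 and Col1a1 619154. Among 7 tested genes of phosphate and mineral handling (4 higher and 3 lower in sign, median 0.02), the mineralization inhibitor Mgp averaged 6666 ± 662 CPM in the vehicle and 5390 ± 370 CPM in the BCAA libraries (SD, n = 3 each; log2 fold change -0.31, edgeR adjusted p = 0.13, and -0.22 with 0.033 without vehicle replicate 1). The pyrophosphate producer Enpp1 had -0.18 (SE 0.07) and the pyrophosphate exporter Ankh 0.18 (SE 0.08).

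Cartilage genes were mostly silent, with 11 of the 15 found under 1 CPM and 4 tested (1 higher and 3 lower in sign, median -0.15, none called with all 6 libraries). The cartilage matrix gene Acan had 2 reads in all and Col2a1 had 9. The lubricin gene Prg4 averaged 12.5 ± 0.429 CPM in the vehicle and 9.53 ± 0.990 CPM in the BCAA libraries (SD, n = 3 each; log2 fold change -0.39, edgeR adjusted p = 0.27), Runx1 had -0.20 (SE 0.10) and Col11a1 -0.10 (SE 0.14). Runx1 was called lower without vehicle replicate 1 (-0.30, edgeR adjusted p = 0.019).

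In the BMP pathway edgeR called no gene with all 6 libraries and the low-count filter, among 4 ligands (median -0.02), 9 receptors and SMAD proteins (0.07), 11 antagonists (-0.04) and 4 target genes (-0.08). Bmp2, the better measured relative of Bmp4, stood at 185 to 198 CPM with vehicle and 191 to 201 CPM with BCAA. Of the ligands, Bmp6 had -0.20 (SE 0.11), Bmp7 0.40 (SE 0.39) and Gdf6 -0.08 (SE 0.11). Of the receptors and SMADs, Bmpr2 had 0.26 (SE 0.12), Smad4 0.12 (SE 0.07) and Bmpr1a 0.12 (SE 0.09). BCAA replicate 1 was the high library for Bmp7 (45 counts against 18 and 19) and Bmpr2 (41.4 CPM against 29.8 and 30.3), and over all fits their values ran from -0.13 to 0.68 and from 0.08 to 0.34. Of the antagonists, the activin and BMP antagonist Fst had -0.25 (SE 0.08, edgeR adjusted p = 0.20, and 0.019 without vehicle replicate 1) and the inhibitory Smad7 0.13 (SE 0.09). The target genes Id3, Id4 and Id1 had -0.17 (SE 0.07), 0.20 (SE 0.16) and -0.18 (SE 0.17). Of 9 WNT pathway genes tested (7 higher and 2 lower in sign, median 0.09), the secreted inhibitors Sfrp1 and Sfrp2 had -0.24 (SE 0.06, edgeR adjusted p = 0.13) and -0.19 (SE 0.07, edgeR adjusted p = 0.29), and β-catenin, Ctnnb1, had 0.11 (SE 0.06). Both inhibitors were called lower without vehicle replicate 1 (-0.20 and -0.23, edgeR adjusted p = 0.027 and 0.033). Their relative Sfrp4 had the other sign, 0.11 (SE 0.09, edgeR adjusted p = 0.64 with all 6 libraries).

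**Figure D4:**
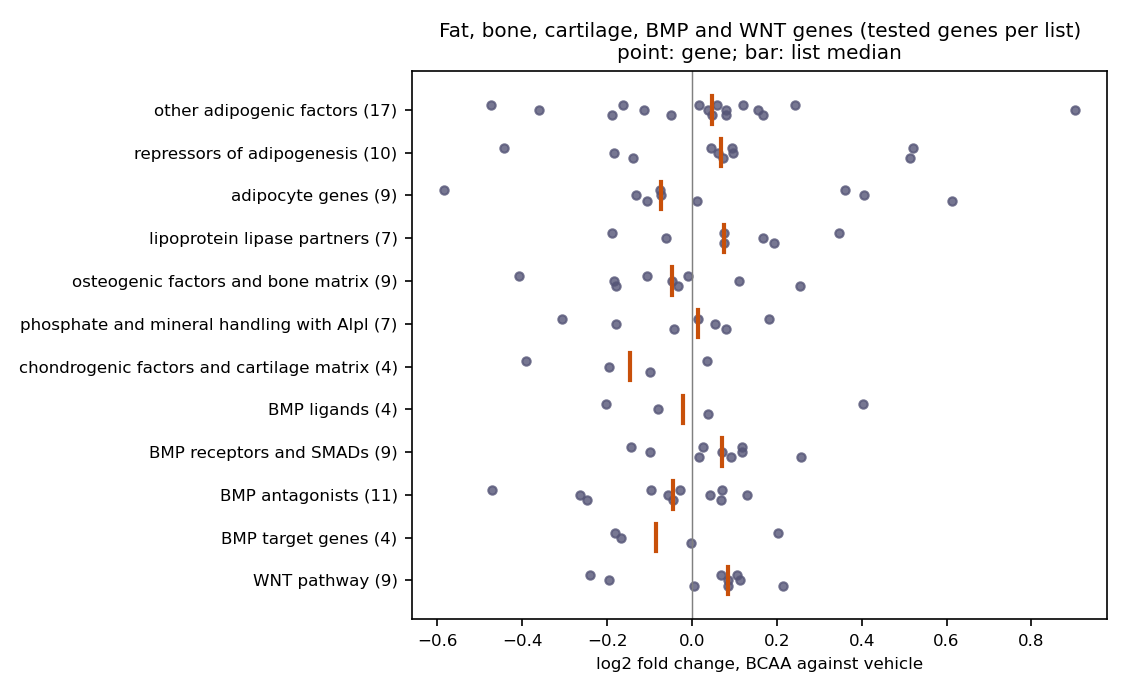
Log2 fold change of BCAA against vehicle for each tested gene (points) of the 12 lists, with the list median (bar) and the number of tested genes in brackets. List medians lie between -0.15 and 0.09, and no point passed the test with all 6 libraries.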

How the data were processed

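Per the submitters' processing notes, Trimmomatic, FastQC, STAR, HTSeq and the build rn6 were used. The sources used here give no versions, annotation or strand setting. The deposited table holds raw counts per gene symbol for 6 libraries (12725344 to 15739731 counts), not normalized or pooled, and has no row for unassigned reads.

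Columns were matched to library titles. The test was edgeR 4.0.16 (R 4.3.3), quasi-likelihood with robust estimation, TMM scaling, filterByExpr (minimum count 10, minimum total 15) and the group as only term, adjusted by Benjamini-Hochberg over 12298 genes. The SE is the log2 fold change divided by the square root of F. Chi-square per degree of freedom between library pairs was 2.65 to 18.1, so no library was a copy. Fits were tested on simulated counts. Alternatives were DESeq2 1.42.0, no scaling factors, no filter, the replicate number as a block, and each library left out. RefSeq sequences are of GRCr8, which is not the build of the counts, and gives the windows, the distances between starts and the overlap of gene spans. Transcript lengths were not used, so levels of different genes, where ranked or summed, are not corrected for length.

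The members and lists were chosen with earlier results of these data known, so no list was tested as a set. Named genes are the 10 members, up to 3 genes of smallest p per pathway list and the 3 highest per marker list; others were chosen after their values were seen. The result of 1 gene that this rule names is not reported here. The symbols Col1a2, Pthlh, Pecam1 and Itgam were not matched and not analysed here.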

Additional observations from a re-analysis of the deposited data

How the results depend on the processing

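The number of genes called over all genes, 28, was 127 with DESeq2, 124 without the low-count filter, 6 with the replicate number as a block and 7 to 491 with 1 library left out, the highest without vehicle replicate 1. Of the 10 regulators 0 to 1 were called with 1 library left out, the 1 being Runx2 without vehicle replicate 1; its log2 fold change ran from 0.27 to 0.46 over those fits. Signs turned only for values within their SE of 0 in the main fit: Lpl was 0.030 without scaling factors, 0.0056 with the replicate block and -0.069 to 0.12 with a library left out; Alpl was 0.025 in each of the first 2 and -0.29 to 0.49; Cebpa ran from -0.059 to 0.24 and Bmp4 from -0.43 to 0.010. The cause was not tested. DESeq2 gave no adjusted p for Zfp423, Alpl, Msx2 and Bmp4. Of 120 list medians under alternatives, 29 moved by more than an SD between the BCAA libraries. This was the SD of the list's median difference from the vehicle mean, and it leaves out the spread of the vehicle libraries. Same-numbered libraries did not deviate together in gene levels (correlations of -0.07, 0.11 and -0.15 for numbers 1 to 3), so the numbers were not taken as pairs. Their total counts were close, however. They were 14484051 and 14482260 for number 1, 15739731 and 15654060 for number 2, and 12725344 and 12802663 for number 3 (vehicle and BCAA). Whether same-numbered libraries share an origin was not tested. With the block no regulator was called. Depth limits Pparg, Alpl, Msx2, Zfp423 and Bmp4, with 30 to 175 counts in all.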

Other observations

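Some genes of these programmes lay under the low-count filter with counts that leaned one way, and were picked after their values were seen. Bmp3, a BMP family member that opposes bone formation, had 6, 12 and 7 counts with vehicle and 3, 2 and 1 with BCAA (log2 fold change -2.01, SE 0.77, edgeR adjusted p = 0.31 without the filter). Lef1, a transcription factor of the WNT pathway, had 5, 4 and 2 counts with vehicle and 12, 11 and 8 with BCAA (1.44, SE 0.64, edgeR adjusted p = 0.43). The homeobox genes Dlx3 and Dlx5, which act with Msx2 in bone, had 2, 6 and 5 and 5, 4 and 5 counts with vehicle and 0, 3 and 1 and 2, 3 and 0 with BCAA (edgeR adjusted p = 0.62 and 0.65). Their relative Msx1, which passed the filter, had a log2 fold change of -0.41 (SE 0.22, edgeR adjusted p = 0.49).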
